A study of Mus musculus with 23 samples.

Results

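The 6 Puromycin arrays of a 23-array series were taken by their group label, and each gene on them was read as the ratio of cell RNA to embryo RNA. A404 cells are a single clone of P19, a mouse embryonal carcinoma line, and as background on the line their resistance to puromycin is driven by the Acta2 promoter (Acta2 encodes alpha-actin of smooth muscle). The Puromycin cells had been given 1 µmol/L all-trans retinoic acid for 96 h and puromycin for the next 48 h, so the drug acted on cells with too little of the resistance product. Whether retinoic acid was kept on during those 48 h is not stated. Each array set Cy5-labelled RNA from 5 to 6 plates of these cells against Cy3-labelled RNA of a single pool of whole mouse embryos of day 17.5. The 6 Control arrays, used below for comparison, held undifferentiated A404 cells without either agent against the same kind of pool. No dyes were swapped, so a dye bias of a probe and a difference between cells and embryo cannot be told apart. That bias, like the embryo RNA, is common to the Puromycin and the Control arrays and drops out of their difference. The embryo pool has no spread of its own, and separate cultures are not stated for the replicates. The p-values therefore cover only the scatter among these 6 arrays, part or all of which may be technical.

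A value of 0 is read as equal amounts of a transcript, per labelled RNA, in the cells and the average of all embryonic tissues. A value of 1 is read as 2-fold more in the cells. Whether the deposited ratios were centred is not stated, and centred ratios would put 0 at the middle of each array instead. The medians of the 6 Puromycin arrays lay between -0.048 and -0.003. Calls of small ratios depend most on where 0 lies. The ratios are on the log2 scale and rest on reading the deposited logarithm as base 10, which is not stated; p-values do not depend on that reading. A gene was called above or below the embryo when limma's moderated test against 0 gave a Benjamini-Hochberg adjusted p under 0.05 and all 6 arrays had 1 sign. As in any bulk RNA, fewer cells of a type and less RNA per cell cannot be told apart, and an embryo holds smooth muscle of its own in the walls of vessels, airways, gut and bladder.

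Smooth muscle cells contract through actin and myosin filaments that are regulated by myosin light chain kinase, caldesmon and calponin and anchored at dense plaques by vinculin, filamin and integrins. Many of these genes are switched on by serum response factor and its cofactors of the myocardin family, which bind CArG boxes, short AT-rich stretches between a CC and a GG, near their promoters. Smooth muscle cells in culture readily turn down the late contractile genes while they keep dividing and secrete matrix.

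The promoters of 6 contractile genes are shown because the selection used the first of them and because the strict form of the CArG box (6 core letters that are all A or T) lay within 250 bases before a start of the other 5. The letters are from RefSeq (GRCm38.p6) and run 5′ to 3′ in the direction of the gene up to the base before the start, with CArG boxes in capitals.
Acta2: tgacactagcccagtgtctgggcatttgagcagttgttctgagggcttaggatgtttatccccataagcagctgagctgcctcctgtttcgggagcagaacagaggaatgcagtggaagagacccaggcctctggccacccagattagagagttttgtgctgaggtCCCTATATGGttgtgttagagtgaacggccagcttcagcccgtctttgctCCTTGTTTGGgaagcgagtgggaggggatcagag
Filip1l: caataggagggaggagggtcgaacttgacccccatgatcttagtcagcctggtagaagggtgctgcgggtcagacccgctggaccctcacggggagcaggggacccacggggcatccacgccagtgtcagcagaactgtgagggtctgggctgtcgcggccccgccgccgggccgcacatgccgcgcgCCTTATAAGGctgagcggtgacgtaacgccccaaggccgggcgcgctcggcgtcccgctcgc
Cnn2: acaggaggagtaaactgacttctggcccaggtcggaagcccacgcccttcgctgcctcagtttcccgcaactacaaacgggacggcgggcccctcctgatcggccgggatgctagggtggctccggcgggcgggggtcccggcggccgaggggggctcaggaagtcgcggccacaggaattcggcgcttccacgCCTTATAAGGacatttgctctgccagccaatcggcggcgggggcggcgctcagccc
Vcl: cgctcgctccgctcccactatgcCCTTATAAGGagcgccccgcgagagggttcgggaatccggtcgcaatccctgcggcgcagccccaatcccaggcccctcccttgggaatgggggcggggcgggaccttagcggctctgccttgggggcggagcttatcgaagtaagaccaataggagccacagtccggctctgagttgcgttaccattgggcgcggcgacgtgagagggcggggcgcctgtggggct
Myl9: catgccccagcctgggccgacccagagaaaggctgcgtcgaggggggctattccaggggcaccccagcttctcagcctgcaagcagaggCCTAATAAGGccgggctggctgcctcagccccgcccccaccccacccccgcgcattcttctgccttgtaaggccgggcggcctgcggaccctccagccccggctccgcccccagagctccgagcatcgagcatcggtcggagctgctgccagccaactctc
Myl6: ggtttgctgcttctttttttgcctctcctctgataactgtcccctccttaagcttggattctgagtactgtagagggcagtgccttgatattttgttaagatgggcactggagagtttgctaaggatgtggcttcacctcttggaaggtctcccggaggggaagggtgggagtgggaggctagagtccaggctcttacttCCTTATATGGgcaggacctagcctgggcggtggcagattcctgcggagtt

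The Acta2 stretch lies at chr19:34255374-34255623 on the minus strand and holds CArG boxes from positions -84 and -34 that fit a relaxed form, in which at least 5 of the 6 core letters are A or T. The Filip1l stretch lies at chr16:57548992-57549241 (plus strand, box from -62), that of Cnn2 at chr10:79988350-79988599 (plus, from -56) and that of Vcl at chr14:20929148-20929397 (plus, from -227). The Myl9 stretch is at chr2:156775214-156775463 (plus, from -161) and that of Myl6 at chr10:128493010-128493259 (minus, from -50). Filip1l and Myl6 each have a further annotated start without a strict box. A strict box was found in 5 of the 23 genes of the contractile list that had a promoter entry (21.7%) and in 99 of 7022 tested genes with an entry (1.41%). The relaxed form was found in 7 of the 23 (30.4%) and in 643 of the 7022 (9.16%). Both forms read the same on either strand. Over the whole array the strict box was about as frequent before genes called above the embryo (1.64% of 2865) as before genes called below it (1.53% of 2491). All 6 genes printed here were called above the embryo, as were 64.0% of the contractile list and 40.4% of all genes. The remaining contractile gene with a relaxed box, Synm (from -239), is not printed. It was not called, at a mean of -0.21. A match is a description of the letters, not of binding.

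Of 8683 genes, 6651 (76.6%) were called, 3506 (40.4%) above the embryo and 3145 (36.2%) below it, and with a change of at least 2-fold 1285 (14.8%) and 913 (10.5%). The whole range of means ran from -5.55 to 5.29, and the median over all genes was 0.05. Means of at least 8-fold were more often below the embryo (47 genes) than above it (29 genes). Only 1880 genes (21.7%) stayed within 0.5 of 0 on all 6 arrays. Because most genes differed from the pool, each count of list members below is to be read against these shares. Counts of genes higher or lower than in Control are likewise to be read against 23.9% and 26.7% of all genes.

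The 6 arrays formed 2 sets that the labels do not name, replicates 1 to 3 and replicates 4 to 6, and each set is read here as technical. Arrays correlated at 0.95 to 0.98 within a set and at 0.81 to 0.84 between sets (Pearson, across all rows of the array). Ratios were wider in the first set: the slope of the second set's gene means on those of the first was 0.70. Of the genes called below the embryo by at least 2-fold, 797 of 913 lay further from 0 in the first set, and of those above it 821 of 1285. For 1269 genes (14.6%) the set means had opposite signs, and these cannot be called. In 6254 genes (72%) all 3 arrays of a set lay above all 3 of the other. The counts above take the 6 arrays as independent. With the set as a random block (correlation of 0.78 among arrays of a set) 2934 genes were called above the embryo and 2591 below it. Set means are given below for the genes whose call or size is discussed by set, and other genes far below the embryo also lie closer to 0 in the second set.

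**Figure D1:**
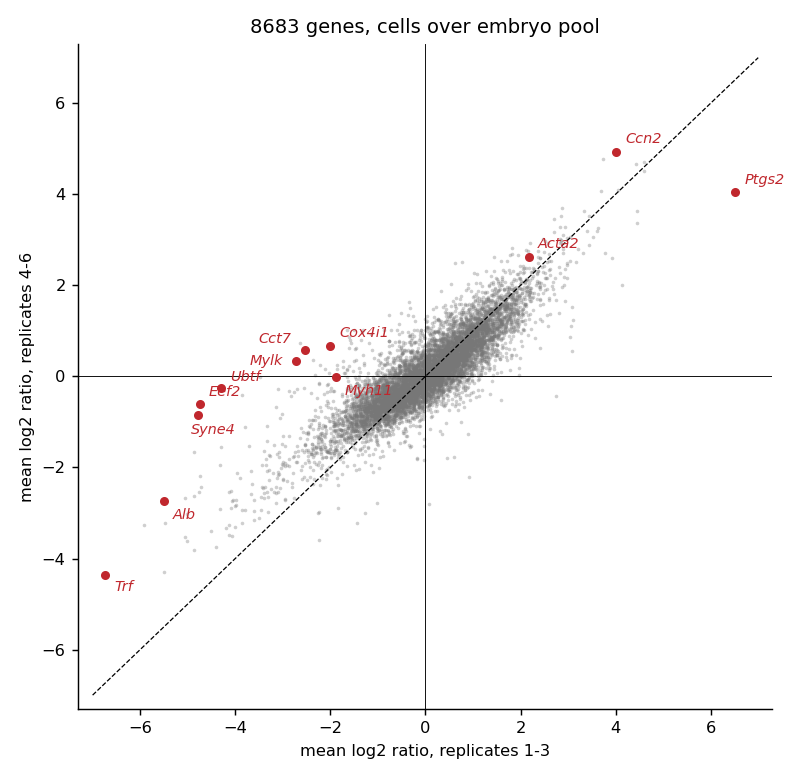
Mean log2 ratio of cells over embryo for each of 8683 genes in replicates 1-3 (x axis) and replicates 4-6 (y axis), with the line of equality dashed and some of the genes named in the text in red. Strongly negative genes such as Trf and Alb lie closer to 0 in replicates 4-6, and Mylk, Cct7 and Cox4i1 change sign between the sets.

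The selected cells were above the embryo for 16 of the 25 smooth muscle contractile genes measured, with Acta2 among them and Myh11 not. That list also holds broadly expressed genes of the actin cytoskeleton, such as Cnn2, Vcl, Flna and Actn1, all called above the embryo. The 16 are thus not genes of smooth muscle alone. Acta2, whose promoter drives the selection, had log2 ratios from 2.13 to 2.77 with a median of 2.36, so the arrays agreed closely. Its mean was 2.40 ± 0.26 (SD, n = 6), 5.26-fold above the embryo (limma, adjusted p = 9.64e-07). In Control cells it was -4.90 ± 0.65, and no Puromycin array overlapped a Control array, as for 35.2% of all genes. Cnn1, which encodes the smooth muscle calponin, was only slightly above the embryo, with 0.09, 0.37 and 0.59 as lowest, median and highest. Its mean of 0.34 ± 0.21 was called (adjusted p = 0.0071), but it was 0.16 in the second set alone, where it did not pass (adjusted p = 0.0603), and it also did not pass with the set as a random block (adjusted p = 0.0791). Myh11, whose myosin heavy chain is the marker most restricted to smooth muscle, ran from -1.98 to 0.13 with a median of -1.01. It was not called: its mean was -0.95 ± 1.03, with -1.89 in the first set and -0.02 in the second. Its Puromycin and Control means differed by 0.19 ± 0.55 (SE; limma adjusted p = 0.808). The set is common to both groups, and with it as a block the same difference had an SE of 0.07 and was called (adjusted p = 0.0368). Tagln, which encodes SM22 alpha, had no probe of its own here. Of these markers, Acta2, the gene used for selection, was thus clearly above the embryo. Cnn1 was slightly above it by a call that depended on the set, and Myh11 was not called.

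Of the 25 contractile genes measured, 16 (64.0%) were above the embryo and 5 below it, with a median of 0.79 against 0.05 over all genes. Against Control cells 20 of the 25 were higher and 0 lower (limma, Puromycin minus Control; 21 and 0 at an unadjusted p under 0.05), where 23.9% of all genes were higher and 26.7% lower (50.6% in all). Caldesmon, the actin-binding brake on myosin that Cald1 encodes in smooth muscle and non-muscle forms, led the list with 2.79, 2.92 and 3.15. Its mean of 2.92 ± 0.13 (7.58-fold; adjusted p = 1.61e-07) came from 3 probes that all passed, with means of 2.17, 3.04 and 3.55. Filip1l, a filamin-interacting protein gene whose promoter is printed above, ran from 2.84 to 3.04 with a median of 2.88 and averaged 7.52-fold above the embryo (adjusted p = 1.1e-07). Cnn2, the broadly expressed calponin, ran from 1.98 to 2.51 with a median of 2.22 (4.73-fold, adjusted p = 6.79e-07). These 3 were named for their large means in this list, so their place above its median of 0.79 follows from that choice.

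The other genes with a strict box lay above the embryo as well, and Myl9 and Myl6 are named here for that match alone. Vcl, which encodes vinculin, ranged from 1.88 to 2.31 with a median of 2.07 (4.25-fold, adjusted p = 6.14e-07). Myl9, the regulatory myosin light chain of smooth muscle, ranged from 1.24 to 2.03 with a median of 1.46 (2.92-fold, adjusted p = 1.8e-05), and its Control mean was -3.02. The myosin essential light chain gene Myl6 ranged from 0.56 to 1.34 with a median of 0.83 (1.87-fold, adjusted p = 0.000404).

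The contractile genes called below the embryo were Des, Actg2, Tpm2, Smtn and Kcnmb1. Des, which encodes desmin, the muscle intermediate filament, was -3.29, -2.70 and -2.17, a mean 6.44-fold below the embryo (adjusted p = 7.16e-06). Actg2, the gamma-actin of enteric smooth muscle, was -2.81, -1.56 and -0.31, 2.95-fold below the embryo (adjusted p = 0.0147). It was -2.77 in the first set and -0.35 in the second, so its size depends on the set. Control cells had still less of it, at -4.81, and the rise from Control was 3.25 ± 0.68 (SE; adjusted p = 0.00178). Tpm2, the beta-tropomyosin gene, was 1.61-fold below the embryo (adjusted p = 0.00578) and Smtn, which encodes smoothelin of contractile smooth muscle, 1.33-fold (adjusted p = 0.00784), and both were higher than in Control, by 2.49 ± 0.41 and 1.05 ± 0.13. Kcnmb1, a subunit of the calcium-activated potassium channel of smooth muscle, averaged -0.30 over 2 probes called in opposite directions (-1.11 and 0.51), and it did not pass with the set as a random block (adjusted p = 0.102). Mylk, which encodes myosin light chain kinase, was -2.72 in the first set and 0.33 in the second, and was not called. Actg2, Tpm2 and Smtn were thus below the embryo and yet higher than in Control.

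**Figure D2:**
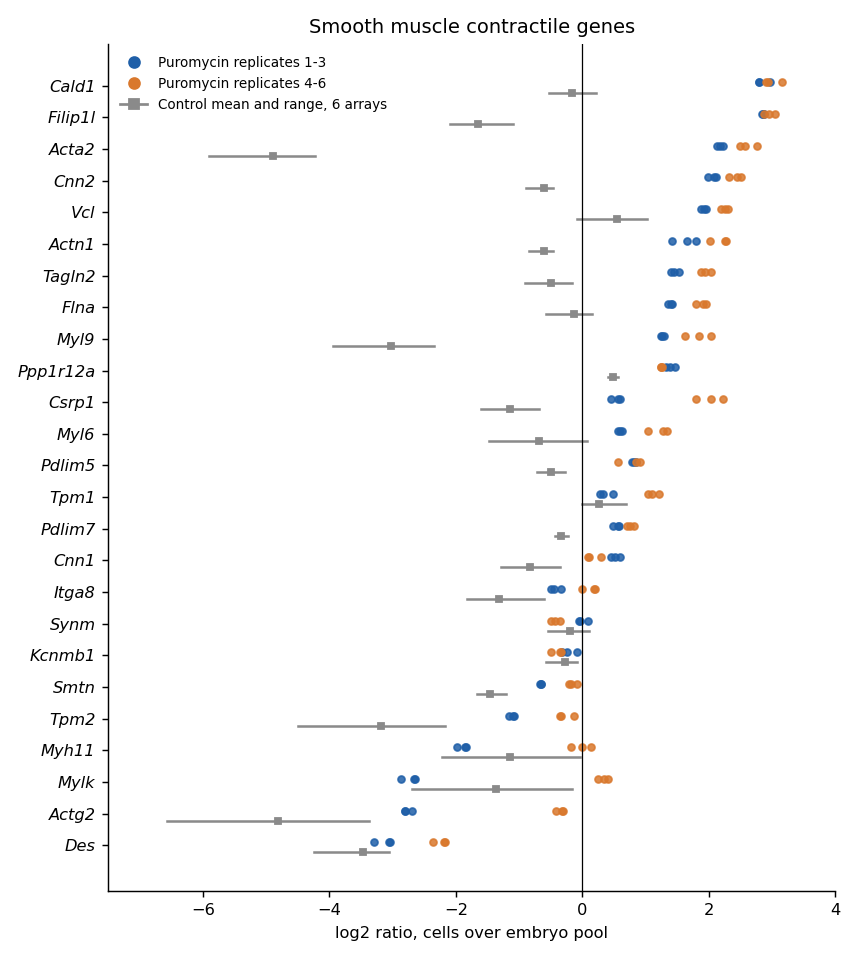
Log2 ratios of cells over embryo for the 25 measured contractile genes, ordered by mean, with 1 point for each Puromycin array (blue, replicates 1-3; orange, replicates 4-6) and the Control mean and range in grey. Acta2 and 15 other called genes lie to the right of 0, and Des, Actg2, Tpm2, Smtn and Kcnmb1 to the left with Myh11 and Mylk split by set.

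Of the 4 actins measured, only Acta2 was called above the embryo. Actg1, the cytoplasmic gamma-actin of all cells, was -0.34, -0.16 and -0.01 and lay barely below it (mean -0.18 ± 0.12; adjusted p = 0.023), a call that was lost with the set as a random block (adjusted p = 0.252), after centring each array on its median (0.0651) and when any of replicates 1, 2 and 3 was left out (0.0536 to 0.0708). Actc1, the cardiac alpha-actin, ran from -0.25 to 1.05 and was not called, with -0.18 in the first set and 1.01 in the second. Acta1 and Actb had no probe with their symbol alone.

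Transcription factors of the smooth muscle program lay on both sides: of 19 measured, 8 were above the embryo (42.1%) and 7 below (36.8%), with a median of 0.03. Gata6, a zinc-finger factor of smooth muscle and endoderm, was the steadiest of those above, with 2.08, 2.10 and 2.22 (4.38-fold, adjusted p = 1.61e-07). Id3 (4.53-fold, adjusted p = 0.000817) and Id2 (2.88-fold, adjusted p = 0.000622), inhibitors of basic helix-loop-helix factors, were above it too, but Id3 averaged 3.11 in the first set and 1.24 in the second. Fhl1, a LIM-domain protein gene of muscle, was 0.77, 0.88 and 0.96 (1.84-fold, adjusted p = 3.51e-06) from a Control mean of -3.05. On the other side stood Mef2c, a factor of heart, skeletal muscle and vessels, with -4.27, -3.78 and -3.43 (14.1-fold below, adjusted p = 5.39e-07). Tcf21 (3.45-fold below, adjusted p = 2.6e-05) and Prrx1 (3.04-fold, adjusted p = 0.000271), factors of embryonic mesenchyme, were below the embryo as well. Against Control 12 of the 19 were higher and 0 lower (13 and 0 at an unadjusted p under 0.05), where 23.9% of all genes were higher and 26.7% lower. Prrx1 was among the 12 (1.76 ± 0.26), whereas Mef2c differed by 0.20 ± 0.19 (limma adjusted p = 0.43).

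Genes of the general actin cytoskeleton were mostly above the embryo. Of 38 genes measured, 29 (76.3%) were above and 4 (10.5%) below, with a median of 1.19, and the median of each single array lay between 1.08 and 1.22. In the Control arrays those medians lay between -0.46 and 0.04. Msn, which encodes moesin, the linker of actin to the membrane, was 2.44, 2.72 and 3.09 (6.73-fold, adjusted p = 9.11e-07). Tmsb4x, which encodes the monomer-binding thymosin beta 4, was 1.60, 2.30 and 2.93 (5.01-fold, adjusted p = 2.48e-05), and Anln, the anillin gene of the cleavage furrow, 1.99, 2.26 and 2.51 (4.75-fold, adjusted p = 1.32e-06). The exceptions were Lcp1, the plastin of blood cells (4.85-fold below, adjusted p = 2.88e-05), Capg (1.82-fold below, adjusted p = 2.34e-06), Tpm2 and Actg1.

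Of 37 focal adhesion and caveolar genes, 17 were above the embryo and 13 below, shares near those of all genes. Lpp, a LIM protein of adhesions that is rich in smooth muscle, was 2.16, 2.28 and 2.36 (4.80-fold, adjusted p = 1.61e-07) and its 3 probes agreed. Itgb1, the common integrin beta chain, was 1.75, 2.23 and 2.77 (4.77-fold, adjusted p = 1.26e-05), and the tetraspanin gene Cd151 was 3.99-fold above (adjusted p = 1.32e-06). The muscle caveolin Cav3 was 3.74-fold below the embryo (adjusted p = 6.44e-06), the collagen receptor chain Itga2 2.46-fold (adjusted p = 1.53e-06) and Itga4 2.02-fold (adjusted p = 0.000139). Cav1, the main caveolin, averaged -0.10 from 1 probe at -0.89 and another at 0.69, both called, so no direction can be given for it, although its average was 3.89 ± 0.23 above that of Control.

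The 15 genes furthest above the embryo included secreted signals and regulators of proteases. Ptgs2, the inducible cyclooxygenase, was highest, with 3.83, 5.43 and 6.57, a mean of 5.29 ± 1.36 and 39.2-fold (adjusted p = 3.1e-05). Its sets did not overlap, at 6.52 and 4.06. Inhba, which encodes the activin beta A subunit, was 4.11, 4.66 and 5.03 (25.2-fold, adjusted p = 2.92e-07), and Ccn2, a matricellular growth factor also known as CTGF, 3.98, 4.42 and 5.07 (22.1-fold, adjusted p = 8.6e-07). Both were thus high on every array.

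The serpin gene Serpinb6b was 4.26, 4.59 and 4.73 (23.5-fold, adjusted p = 9.8e-08), and Prss23, a secreted serine protease gene, was 4.34, 4.58 and 4.68 (23.4-fold, adjusted p = 6.23e-08). S100a6, a calcium-binding protein gene of proliferating mesenchyme, held within 4.01 to 4.27 (16.9-fold, adjusted p = 6.23e-08). These 3 had spreads of 0.16, 0.14 and 0.10 (SD), far below their distance from the embryo. Hmga2, a chromatin protein gene of embryonic and transformed cells, was 3.70, 4.25 and 4.84 (19.1-fold, adjusted p = 1.77e-06), with Control already at 2.00. Anxa3, an annexin gene (16.5-fold), Tmem87a, a Golgi membrane protein gene (15-fold), and Tceal9 (14.8-fold) followed, then Slc38a4, an amino acid transporter gene, and Vmp1, a gene of autophagy, both 11.2-fold. The list of 15 closed with Cdkn2b, the cell cycle inhibitor p15 (10.9-fold), Espn, an actin-bundling protein gene (10.6-fold), and Hbegf, a ligand of the epidermal growth factor receptor (9.82-fold). Adjusted p-values of these 8 lay between 6.23e-08 and 4.25e-06.

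Against Control, 14 of these 15 were higher, at differences of 0.84 to 6.72, where 23.9% of all genes were higher. Tmem87a was not called (0.52 ± 0.32, SE, limma adjusted p = 0.2) except with the set as a block (adjusted p = 0.045). The 15 were chosen on the same Puromycin arrays. The largest differences were those of Prss23 (6.72 ± 0.11), Serpinb6b (6.08 ± 0.22) and S100a6 (5.99 ± 0.09), all from Control means below the embryo.

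**Figure D3:**
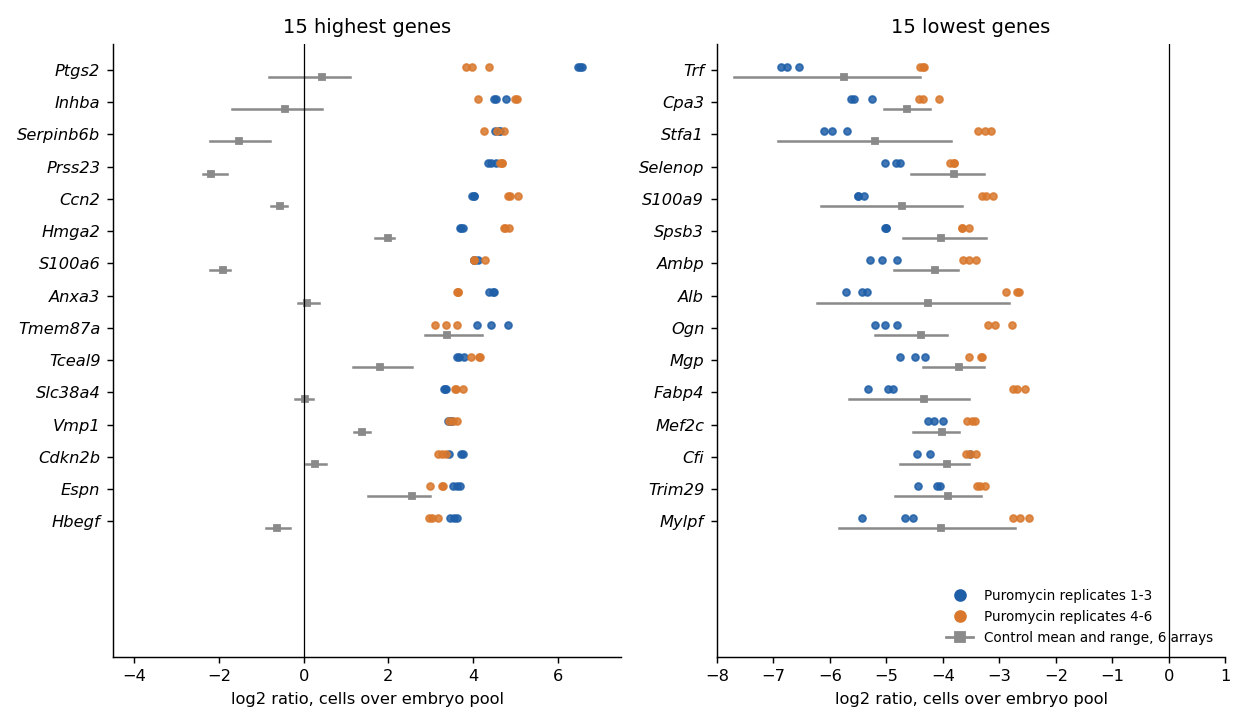
Log2 ratios of cells over embryo for the 15 highest (left) and 15 lowest (right) called genes, with points for the 6 Puromycin arrays and the Control mean and range in grey. Most of the highest genes are far from Control, whereas the ranges of Control and Puromycin run side by side for the lowest.

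Matrix genes and their proteases lay on both sides of the embryo. Of 12 matricellular genes 3 were above the embryo and 6 below. Those above were Ccn2, Thbs1 and Tnc. Thbs1, which encodes thrombospondin 1, an activator of latent TGF-beta made by cultured mesenchymal cells, was 2.62, 3.08 and 3.56 (8.43-fold, adjusted p = 2e-06), and both its probes passed, at 2.60 and 3.55. Tnc, the tenascin C gene, was 0.86, 1.42 and 1.99 (2.68-fold, adjusted p = 0.000398). Below the embryo were Sparcl1 (7.26-fold, adjusted p = 3.62e-06), Emilin1, of elastic fibres (3.46-fold, adjusted p = 3.51e-05), and Thbs2 (3.12-fold, adjusted p = 0.000115). Postn, the periostin gene, was 2.30-fold below (adjusted p = 0.0229), with -2.24 in the first set and -0.17 in the second, and its call ended when any of replicates 1, 2 and 3 was left out (adjusted p 0.0615 to 0.0651). Against Control 10 of the 12 were higher and 0 lower (10 and 0 at an unadjusted p under 0.05), where 23.9% of all genes were higher and 26.7% lower. Postn was among the 10, by 4.50 ± 0.58.

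Of 22 fibroblast genes 17 (77.3%) were below it and 2 above. Col6a1 was 11.2-fold below (adjusted p = 1.28e-05), Col6a3 6.15-fold (adjusted p = 0.000662) and Col6a2 6.01-fold (adjusted p = 0.000121), the 3 chains of collagen VI together. The exception was Vim, which encodes vimentin, the intermediate filament of mesenchymal and cultured cells, with 2.78, 2.97 and 3.29 (7.98-fold, adjusted p = 2.32e-07), and its 4 probes agreed. Col12a1 was the other gene above, at 0.26 ± 0.21, and its call was lost with the set as a random block (adjusted p = 0.36), in the second set alone (0.177) and when replicate 1, 2 or 6 was left out (0.0592 to 0.0626). Fn1, the fibronectin gene, had 1 probe at -0.85 and another at 1.98, both called, and no direction is given. The 2 probes of Col6a3 were unlike in size, at -4.46 and -0.78, and only the first was called.

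Basement membrane genes stood on both sides, 11 above and 9 below of 25. Nid1 was 1.73, 2.03 and 2.23 (4.02-fold, adjusted p = 8.12e-07), Nid2, the other nidogen, 3.42-fold above (adjusted p = 4.84e-05), Col4a2, a collagen IV chain, 1.25, 1.41 and 1.48 (2.62-fold, adjusted p = 6.79e-07), and Tinagl1 2.55-fold (adjusted p = 1.88e-06). Col15a1 was 4.73-fold below (adjusted p = 0.000167) and Col18a1 3.30-fold (adjusted p = 4.19e-07), the multiplexin collagens of vessel and muscle basement membranes. The laminin chain genes Lamb1 (0.53 ± 0.16) and Lama3 (0.53 ± 0.30) were slightly above, and Lama4, of vessels and muscle, was 2.37-fold below (adjusted p = 0.000346).

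Of 33 proteases and their inhibitors 16 were above the embryo and 12 below. Beside Serpinb6b and Prss23, Serpinb9b was 1.97, 2.91 and 4.41 (8.38-fold, adjusted p = 0.00027), with 4.13 in the first set and 2.00 in the second, and Plaur, the urokinase receptor gene, 2.43, 2.52 and 2.72 (5.81-fold, adjusted p = 1.61e-07). Serpinf1 (4.44-fold, adjusted p = 4.22e-05), the lysosomal protease gene Ctsh (4.02-fold, adjusted p = 6.4e-05), Mmp9, of osteoclasts and white blood cells (3.66-fold, adjusted p = 2.66e-06), and Serping1, the C1 inhibitor gene (3.57-fold, adjusted p = 7.11e-06), were below.

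Genes of the liver and other organs lay mostly below the embryo. Alb, the albumin gene of fetal liver, was -5.71, -4.12 and -2.65. Its mean of -4.12 ± 1.52 (17.4-fold below, adjusted p = 0.000207) held -5.50 in the first set and -2.74 in the second. Of 12 hepatocyte genes 8 (66.7%) were below and 2 above, with a median of -2.26, and all 8 by at least 2-fold. Trf, the transferrin gene, was the lowest gene of all, with -6.87, -5.48 and -4.34 (46.7-fold below, adjusted p = 1.92e-05). It was -6.73 in the first set and -4.36 in the second. It was followed in this list by Ambp (19.6-fold, adjusted p = 9.1e-06) and Plg, the plasminogen gene (12.6-fold, adjusted p = 3.22e-06). The 2 exceptions, Tdo2 (0.49 ± 0.27) and Fga (0.37 ± 0.36), did not pass with the set as a random block (adjusted p = 0.199 and 0.11), and Fga also did not when replicate 4, 5 or 6 was left out (0.0797 to 0.0865).

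Genes of blood cells were below the embryo as well. Of 13 erythroid genes 11 (84.6%) were below and 0 above, and of 23 leukocyte genes 21 (91.3%) were below and 0 above (limma; also 0 above in either list at an unadjusted p under 0.05). The adult beta-globin gene Hbb-b2 was -4.97, -3.25 and -1.56 (9.59-fold below, adjusted p = 0.00158), with 1 of the 5 widest gaps between sets (-4.86 and -1.66). Slc4a1, the anion exchanger of red cells, was 8.67-fold below (adjusted p = 8.32e-06). Of the white cell genes S100a9, a granule protein gene of neutrophils, was 20.3-fold below (adjusted p = 5.27e-05), Prtn3 9.88-fold (adjusted p = 3.36e-07) and the complement gene C1qc of macrophages 8.06-fold (adjusted p = 2.05e-05).

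Striated muscle, skeleton and skin were low as well. Of 20 skeletal muscle genes 16 were below the embryo, led by Mylpf, the fast regulatory light chain (13.4-fold, adjusted p = 0.000138), Tnnt3, a troponin T (10.7-fold, adjusted p = 6.9e-06), Eno3 (10.5-fold, adjusted p = 2.64e-06) and Ckm, the muscle creatine kinase (9.85-fold, adjusted p = 3.76e-05). Actn3 alone was above it, at 0.68, 1.02 and 1.38 (2.04-fold, adjusted p = 9.92e-05). All 8 cartilage and bone genes were below, Col2a1 by 12.5-fold (adjusted p = 0.000131) and Ibsp, bone sialoprotein, by 10.1-fold (adjusted p = 3.93e-05), and so were 11 of 12 epidermal genes, Flg by 5.69-fold (adjusted p = 0.000273) and Krt14 by 5.40-fold (adjusted p = 6.66e-05). Cardiac genes were mixed, 9 below and 3 above of 18: Casq2 was 10.5-fold below (adjusted p = 1.46e-05) and Csrp3 8.21-fold (adjusted p = 0.000121), while Nppb, which encodes the B-type natriuretic peptide, was 1.20, 2.00 and 2.63 (3.85-fold above, adjusted p = 0.00016).

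Genes of nervous tissue were mostly below the embryo. Of 32 neuronal genes 21 (65.6%) were below and 4 above, with a median of -0.87. Nsg2 was 8.16-fold below (adjusted p = 1.77e-06), Map2, of dendrites, 5.38-fold (adjusted p = 1.84e-05) and Dcx, of migrating neurons, 3.95-fold (adjusted p = 1.68e-05). Th (0.84 ± 0.19), Crmp1 (0.67 ± 0.08), Stmn2 (0.54 ± 0.10) and Snap25 (0.43 ± 0.25) were the 4 above, none by 2-fold, and Snap25 did not pass with the set as a random block (adjusted p = 0.0839). P19 cells are known for making neurons when aggregated with retinoic acid. Dpysl3 and Gap43, of growing axons, were split by set, at -0.36 and 1.34 and at -0.42 and 0.57. Of 11 glial genes 8 were below and only Pmp22, a membrane protein gene of Schwann cells that many other cells express, was above (2.29, 2.71 and 3.12; 6.53-fold, adjusted p = 1.14e-06).

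Vessel lining, supporting cells and organ epithelia were below in the same way. Of 14 endothelial genes 11 were below the embryo, Cd34 by 10.3-fold (adjusted p = 3.15e-06), Ramp2 by 5.52-fold (adjusted p = 2.25e-05) and Cdh5, the cadherin of endothelium, by 4.32-fold (adjusted p = 5.28e-07). Flt1, which encodes a receptor of vascular endothelial growth factor, was the exception, with 0.92, 1.03 and 1.18 (2.07-fold above, adjusted p = 2.54e-06). Of 7 pericyte genes 5 were below, Rgs5 by 4.64-fold (adjusted p = 6.74e-07) and Pdgfrb by 1.82-fold (adjusted p = 3e-05), and Mcam was above (1.87-fold, adjusted p = 0.000305). All 4 lung and all 6 gut and pancreas genes measured were below, Sftpd by 5.06-fold (adjusted p = 2.89e-06) and Lgals4 by 10.4-fold (adjusted p = 1.42e-05). The kidney list had 6 of 11 below and only Wt1, of mesothelium and kidney, above (1.57-fold, adjusted p = 8.44e-05), and 3 of 4 genes of fat were below, Fabp4 by 14.5-fold (adjusted p = 0.000139).

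Control cells were far below the embryo for the lowest genes too. Of the 15 lowest 0 were called against Control, where 50.6% of all genes were (limma, also 0 of the 15 at an unadjusted p under 0.05). Differences of the 15 ran from -0.54 to 0.61 and adjusted p from 0.147 to 0.894. With the set as a block, SEs fell from between 0.19 and 0.78 to between 0.07 and 0.22, and 3 of the 15 were called: Stfa1 was higher by 0.61 ± 0.13 (adjusted p = 0.0019), Selenop lower (-0.54 ± 0.10; adjusted p = 0.000451) and Spsb3 lower (-0.28 ± 0.07; adjusted p = 0.00387). Beside Trf, Ambp, Alb, S100a9, Mef2c, Fabp4 and Mylpf they were Cpa3, a protease gene of mast cells (29.6-fold below the embryo), Stfa1 (24.0-fold), the selenium carrier gene Selenop (20.4-fold), Spsb3 (19.9-fold), Ogn, of connective tissue (16.2-fold), Mgp, of cartilage and vessel walls (15.5-fold), Cfi, complement factor I (13.8-fold), and Trim29, of squamous epithelia (13.6-fold). Their adjusted p-values against 0 lay between 5.39e-07 and 0.000207, and all 15 were further from 0 in the first set. Stfa1 was -5.92 and -3.26 in the first and second set, S100a9 -5.47 and -3.22, Fabp4 -5.06 and -2.67, and Mylpf -4.87 and -2.62, so the size of these folds depends on the set. The median of the hepatocyte list was -2.26 in Puromycin and -2.51 in Control cells, that of the skeletal muscle list -1.88 and -1.98, and that of the leukocyte list -1.17 and -1.35. The fibroblast list stood apart from these, at -1.19 against -2.40, with 10 of its 22 genes higher than in Control and 0 lower (12 and 0 at an unadjusted p under 0.05). Of all genes 23.9% were higher than in Control and 26.7% lower.

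**Figure D4:**
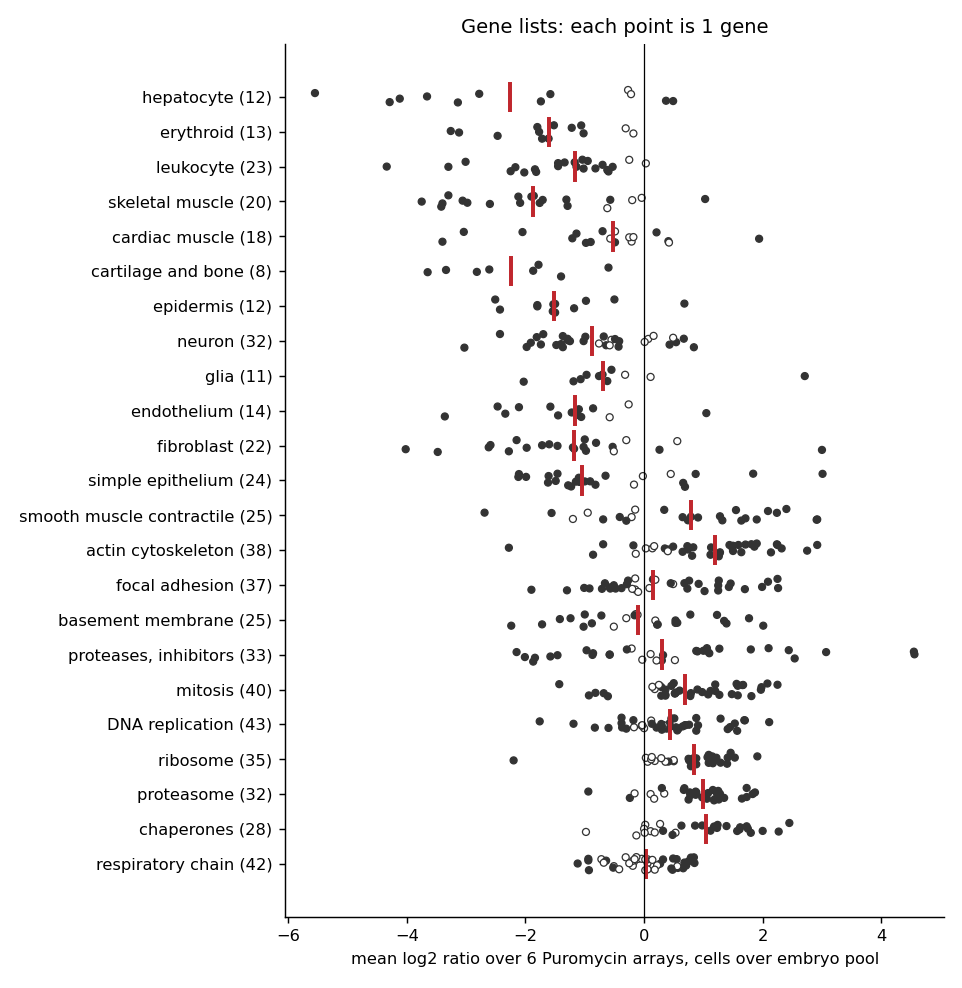
Mean log2 ratio of cells over embryo for the measured genes of 23 lists, the number of genes in brackets; filled points are called, open points are not, and red bars are list medians. The medians of the organ lists lie to the left of 0, and those of the actin cytoskeleton, mitosis, ribosome, proteasome and chaperone lists to the right.

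Genes of simple epithelium and of extra-embryonic endoderm, the other fates that such cultures can hold, were split. Krt8 was 2.56, 3.08 and 3.37 (8.07-fold above, adjusted p = 1.18e-06) and its partner Krt18 0.91, 1.80 and 2.73 (3.59-fold, adjusted p = 0.000598), with 2.57 in the first set and 1.11 in the second. Both keratins are found in simple epithelia and also in some embryonic mesenchymal and smooth muscle cells. The keratins split, as Krt19 was 4.36-fold below (adjusted p = 1.61e-07) and Krt7 4.31-fold (adjusted p = 1e-05). The adhesion genes Cdh1, which encodes E-cadherin, and Epcam were below too, by 3.96-fold (adjusted p = 8.09e-06) and 3.04-fold (adjusted p = 0.000208). Of 24 simple epithelial genes 16 (66.7%) were below and 5 above. Of 24 genes of parietal endoderm 11 were above and 7 below: Gata6, Nid1 and Krt8 were above, while Foxa2 (2.33-fold, adjusted p = 1.32e-06) and Gata4 (1.65-fold, adjusted p = 0.000371, over 2 probes called in opposite directions) were below. Against Control 17 of the 24 endoderm genes were higher and 4 lower (limma), with a list median of 0.17 against -1.38 in Control cells. For the 24 simple epithelial genes the counts against Control were 7 and 5. Of all genes 23.9% were higher than in Control and 26.7% lower. The part of epithelial or endodermal cells in these values was not tested.

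The selected cells were above the embryo for genes of cell division. Of 40 mitotic genes 32 (80.0%) were above and 5 below, with a median of 0.69, and of 43 genes of DNA replication 28 (65.1%) were above and 9 below, with a median of 0.43. Kif4, a chromosomal kinesin gene, held within 2.03 to 2.15 (4.22-fold, adjusted p = 1.61e-07), Ect2, of cytokinesis, within 1.89 to 2.12 (3.93-fold, adjusted p = 2.54e-07), and Cks2, a partner of cyclin-dependent kinases, within 1.88 to 2.08 (3.91-fold, adjusted p = 2.51e-07). Cdc6, which loads the replicative helicase, was 2.02, 2.12 and 2.19 (4.33-fold, adjusted p = 1.61e-07), Gmnn, the geminin gene, 3.24-fold above (adjusted p = 7.44e-07) and Rrm2, of nucleotide synthesis, 3.22-fold (adjusted p = 5.25e-07). Mcm3, a subunit of that helicase, ran from -1.83 to -1.64 (3.38-fold below, adjusted p = 2.93e-07), and Pold1, a DNA polymerase gene, was 2.28-fold below (adjusted p = 6.86e-06). Control cells stood higher still: 26 of the 40 mitotic genes and 32 of the 43 replication genes were lower in Puromycin than in Control, where 26.7% of all genes were.

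Of 22 genes of p53 response and cell cycle arrest 12 were above the embryo and 8 below, the latter at the share of all genes. Cdkn2b (3.18, 3.39 and 3.77), Fas, a death receptor gene (5.90-fold above, adjusted p = 1.03e-06), Ccng1, cyclin G1 (2.31, 2.43 and 2.5; 5.36-fold, adjusted p = 1.61e-07), and Zmat3 (3.51-fold, adjusted p = 3.4e-07), of which the last 3 are targets of p53, were the highest. Cdkn1c, the imprinted inhibitor p57, was 3.83-fold below (adjusted p = 3.84e-05).

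Genes of protein synthesis and turnover were above the embryo, and the ribosomal ones by an amount that depended on the set. Of 35 ribosomal protein genes 25 (71.4%) were above and only Rplp2 below (4.60-fold, adjusted p = 2.3e-06). Their median was 0.38 to 0.52 on replicates 1 to 3 and 1.19 to 1.34 on replicates 4 to 6, and within the first set alone 24 were above and 8 below. Of 32 proteasome genes 26 (81.2%) were above and 2 below, with medians of 0.84 to 1.18 over the arrays, and one of the 2 was Psmb8, an immunoproteasome subunit (1.92-fold, adjusted p = 0.0078). Of 28 chaperone genes 19 were above and 0 below (limma; also 19 and 0 at an unadjusted p under 0.05), though in the first set alone 6 were below. Cct4, of the chaperonin ring that folds actin and tubulin, was 2.14, 2.41 and 2.83 (5.47-fold, adjusted p = 2.02e-06) and Hspa4 2.12, 2.24 and 2.43 (4.84-fold, adjusted p = 2.72e-07), whereas the probe for another subunit, Cct7, was -2.53 in the first set and 0.58 in the second. Control cells were above the embryo too, with medians of 1.28 (ribosome), 1.25 (proteasome) and 1.15 (chaperones), against 0.84, 0.99 and 1.05 in Puromycin cells. Against Control 5 ribosomal genes were lower and 2 higher, and 8 and 3 proteasome genes. With the set as a block these counts were 26 and 2, and 14 and 3. The chaperone counts were 4 and 5, or 9 and 9 with the block. The respiratory chain changed sides: of 42 genes 14 were above and 6 below, but 13 and 25 in the first set alone and 24 and 6 in the second, and Cox4i1 was -2.01 and 0.66.

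**Figure D5:**
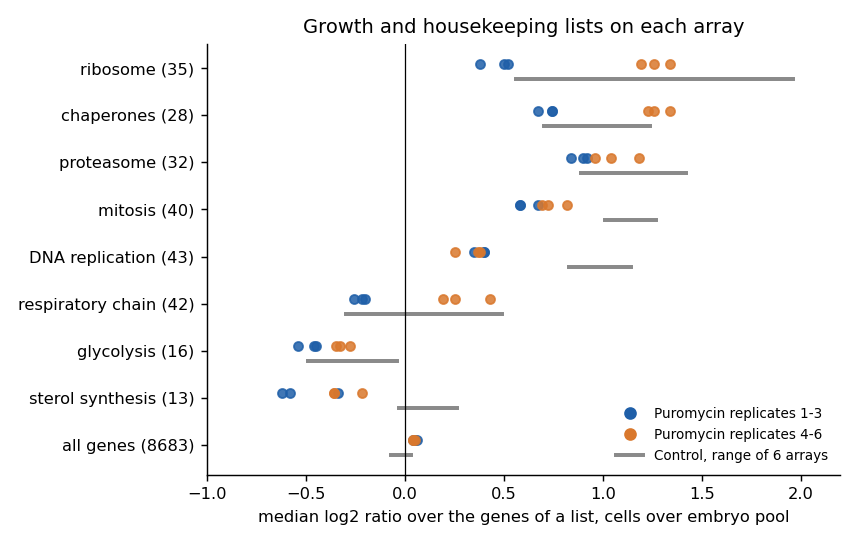
Median log2 ratio over the genes of each list on each Puromycin array (blue, replicates 1-3; orange, replicates 4-6), with the range over the 6 Control arrays in grey and the number of genes in brackets. The ribosome, chaperone and respiratory chain lists differ between the sets, while mitosis and DNA replication lie below Control on every array.

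Signalling genes lay on both sides of the embryo. Of 32 genes of the TGF-beta and BMP pathways 13 were above the embryo and 17 below. Beside Inhba, Tgfb2 was 2.65, 2.90 and 3.27 (7.67-fold, adjusted p = 5.25e-07) and both its probes agreed. Fst, which encodes follistatin, the binder of activin, was 1.42, 1.52 and 1.59 (2.86-fold, adjusted p = 4.04e-07), and Ltbp1, which holds latent TGF-beta in matrix, was 1.56-fold above (adjusted p = 1.9e-05). The BMP antagonist gene Nog was 3.49-fold below (adjusted p = 5.69e-07), the co-receptor gene Tgfbr3 3.21-fold (adjusted p = 8.85e-06) and the repressor gene Tgif1 2.80-fold (adjusted p = 1.59e-06).

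Growth factors and their receptors were more often below the embryo (18 of 39) than above it (9). Hbegf (2.96, 3.31 and 3.61) and its receptor Egfr (1.38, 1.69 and 1.95; 3.17-fold, adjusted p = 4.03e-06) were both above, as were Fgf10 (2.84-fold, adjusted p = 3.45e-06) and Pdgfc, a ligand of mesenchymal growth (2.72-fold, adjusted p = 5.48e-07). Igf1 was 6.55-fold below (adjusted p = 3.25e-05), Ednrb, the endothelin receptor B, 3.6-fold (adjusted p = 1.84e-06), Igfbp4 3.50-fold (adjusted p = 3.19e-07) and Kit 2.90-fold (adjusted p = 4.26e-06). Igf2, the main growth factor of the fetus, was not called, at -0.30 in the first set and 0.80 in the second, although it was 4.89 ± 0.43 higher than in Control.

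Genes of position, imprinting and pluripotency completed the comparison. Of 18 homeobox genes of the Hox, Meis and Pbx families 8 were above and 7 below. Hoxa5 (1.71, 2.17 and 2.52; 4.47-fold, adjusted p = 4.8e-06), Hoxb9 (1.30, 1.44 and 1.66; 2.74-fold, adjusted p = 9.58e-07) and Meis1 (1.36, 1.44 and 1.5; 2.70-fold, adjusted p = 4.19e-07) led those above, and Hoxd13, of distal limb and genitalia, was the lowest (2.51-fold below, adjusted p = 1.18e-05). Of 19 imprinted genes 7 were above and 10 below: Mkrn3 was 2.26, 2.65 and 3.02 (6.26-fold above, adjusted p = 6.45e-07), Plagl1 2.30-fold above (adjusted p = 5.2e-05), Grb10, a growth-restraining adaptor gene, -3.56, -3.15 and -2.84 (8.81-fold below, adjusted p = 4.1e-07) and H19 3.59-fold below (adjusted p = 0.000224). Of 26 pluripotency genes 6 were above the embryo and 9 below, with a median of -0.02 against 1.28 in Control cells. Lower than in Control were 16 of the 26, as were 26.7% of all genes. Nanog was -0.60, -0.49 and -0.21 (1.37-fold below, adjusted p = 0.000517), while Lefty1 was still 2.87-fold above the embryo (adjusted p = 8.02e-06) and Zfp42, also known as Rex1, 2.14-fold (adjusted p = 2.7e-05). After centring each array on its median the counts of this list were 9 above and 7 below, so it has no settled side.

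Probes of 1 gene did not always agree. Of 1926 genes with more than 1 probe, 423 had probes called in opposite directions, and the gene values above are means over probes. The widest gaps between sets among called genes were those of Eef2, the translation elongation factor 2 (-4.75 and -0.60), Ubtf, a factor of ribosomal RNA transcription (-4.29 and -0.25), Syne4 (-4.79 and -0.84) and the histone gene H4c18 (-3.86 and -0.41), beside Hbb-b2. All 5 were called below the embryo, and for Ubtf the call ended when any of replicates 1, 2 and 3 was left out (adjusted p 0.0689 to 0.0725). In each the first set was the lower.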

How the data were processed

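Per the labels, cell RNA carried Cy5 and embryo RNA Cy3, on Agilent arrays read with scanner G2565AA and Feature Extraction A.6.1.1. The deposited values were log ratios, read as log10 of Cy5 over Cy3; base, centring and dye normalization are not given in the sources used here, and direction rests on the dyes. Spot intensities were not used here, so no detection limit could be set, and the number of arrays limits the precision. Of 21446 rows, 1166 probable control spots (5.44%) were left out. Of 20280 probes, 11100 had 1 gene symbol, 442 several and 8738 none, by the platform annotation. Values were divided by log10 of 2 and averaged per symbol (17863 rows, 8683 genes).

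The 6 Puromycin arrays were tested against 0, and against the 6 Control arrays, with limma 3.58.1 (R 4.3.3, statmod 1.5.0), with Benjamini-Hochberg adjustment over all rows, after checks on simulated data. Genes named were drawn by rule from Acta2, Thbs1, Alb, Cnn1, Myh11 and Tagln, the 15 highest and 15 lowest called, the actins and the 5 widest set gaps. The rule also covered up to 4 called members of each list each way and members against its majority sign. Not all of these are named in the text: mitotic genes below the embryo and Itga8 of the contractile list, for example, are not. Vcl, Myl9 and Myl6 were named for a promoter match, and other genes outside the rule after their values were seen. Members and lists were chosen with earlier results of these data known.

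Replicate numbers are shared with Control. Deviations of same-numbered arrays correlated at 0.30 to 0.49, but so did those of other numbers of the same set (0.33 to 0.49), and 1 of 6 arrays correlated best with its own number. Normalization, set, probe, threshold and replicate choices were varied. Promoter letters came from RefSeq.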

Additional observations from a re-analysis of the deposited data

Results flagged for a closer look

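In 3 of the 206 genes named, 1 array lay far from the other 5 of its group by Dixon's test. By chance about 1 in 20 genes would be marked so if the arrays were independent. They form 2 sets that lie apart in most genes, which widens the range, so the 3 cannot be set against that share. Nid2 was 2.71 on Puromycin replicate 2 and 1.36 to 1.75 on the others. Itga2 was -1.54 on Puromycin replicate 1 and -1.30 to -1.20 on the others. Nog was -1.53 on Puromycin replicate 1 and -1.91 to -1.79 on the others. No array changed the side of any of the 3, and the cause was not tested.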

How the results depend on the processing

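Every alternative run on genes kept the counts within 1.5 times of the main ones. Genes above the embryo were 2651 to 4010 (against 3506) and below it 2272 to 3667 (against 3145). Genes called against Control were 3213 to 5755 (against 4392). With single probes as rows, 4481 probes were above the embryo and 3976 below it, which are not counts of genes. Leaving out 1 array in turn gave 3437 to 3490 genes above the embryo, 3061 to 3149 below it and 3977 to 4251 against Control. With the replicate number as a block 5107 genes were called against Control; the pairing moved that count by less than 1.5 times. With the set as a block for single genes, an alternative chosen after seeing the data, Myh11, Tmem87a and 3 of the 15 lowest genes were called against Control, and Mef2c was not (adjusted p = 0.174). Of the 196 named genes that were called, 187 kept their call under every alternative run for single genes (normalization, set and left-out arrays), and the 9 others are Actg1, Cnn1, Col12a1, Fga, Kcnmb1, Postn, Snap25, Tdo2 and Ubtf. The 7 genes whose sign turned were all uncalled. In the first set alone Actc1 was -0.18, Dpysl3 -0.36, Gap43 -0.42 and Igf2 -0.30. In the second set alone Cct7 was 0.58, Cox4i1 0.66 and Mylk 0.33. The cause was not tested. With no spread in the embryo pool, no dye swap and no intensities, small ratios and dim probes are the least secure.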

Other observations

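Of 19 chemokine and cytokine genes 7 were above the embryo and 5 below, shares no higher than those of all genes. Beside Ptgs2, the chemokine gene Cxcl12 was 2.44, 2.76 and 3.03 on its lowest, median and highest array (6.73-fold above, limma adjusted p = 5.84e-07) and Tnfrsf12a, a receptor of the tumour necrosis factor family, 2.41, 2.75 and 2.99 (6.71-fold, adjusted p = 4.1e-07). Ccl2, which attracts monocytes, was 1.45, 2.2 and 2.62 (4.39-fold, adjusted p = 2.79e-05). Selp, of platelets and endothelium, was 2.19-fold below (adjusted p = 4.52e-05) and Il1a 1.81-fold (adjusted p = 3.7e-05). Vcam1 was 1.51-fold below the embryo (adjusted p = 0.000256) although it was 2.48 ± 0.16 (SE) higher than in Control. Of 21 genes of antigen presentation and interferon response 5 were above and 10 below, 0 of them by 2-fold, and B2m, the light chain of class I molecules, ran from 0.68 to 0.98 and was 3.15 ± 0.09 higher than in Control.

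Of 16 glycolytic genes 5 were above the embryo and 10 below, with means from -2.05 to 1.87, and the lowest gene is not named here. Pkm, the pyruvate kinase of muscle and proliferating cells, was 1.73, 1.84 and 2.09 (3.65-fold above, adjusted p = 4.23e-07), and Pgk1 (2.22-fold) and Gapdh (2.02-fold) were above too. Pfkm, the muscle phosphofructokinase, was -2.09, -1.68 and -1.34 (3.24-fold below, adjusted p = 8.53e-06), Aldoc, the brain aldolase, 2.28-fold below and Pfkl, of liver, 2.23-fold below. Ldha, a lactate dehydrogenase gene named after its values were seen, was 1.81-fold below. Of 13 genes of sterol synthesis 9 were below the embryo and 1 above, and Dhcr7 (-0.71 ± 0.24) and Mvd (-0.70 ± 0.24) were below on every array. Of 14 genes of retinoic acid handling and response 4 were above and 7 below, with means from -2.43 to 1.56, and the lowest gene is not named here. The receptor genes Rara (1.16, 1.56 and 1.98) and Rarb (0.83, 0.98 and 1.21) were above, and Rxrg (-1.30, -1.12 and -1.01), the retinol carrier receptor Stra6 (-1.21, -1.13 and -1.09) and Aldh1a1 (-1.41, -1.08 and -1.01), which makes retinoic acid, were below.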
